A study of Mus musculus with 12 samples.

Results

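The 10 genes described here belong to the integrin alpha-v beta-8 and transforming growth factor beta (TGF-beta) activation system and were measured by RNA sequencing of medial prefrontal cortex from female mice. They are Itgb8, Itgav, Itgb1, Itgb5, Tgfb1, Tgfb2, Ltbp1, Nrros, Tgfbr1 and Tgfbr2, 10 of the 24411 gene symbols counted, and all 10 passed the filter on low counts, as did 15199 genes in all. Itgb8 and Itgav were chosen by their measured stress differences, both being lower after stress in these same libraries, so their stress differences are given as descriptions without a test. The other 8 genes were chosen as their partners in TGF-beta activation and not by their values, although earlier results of these data were known at that point.

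The 12 libraries form 4 groups of 3: unstressed wild type (WT), stressed WT, unstressed Cav3.1 knockout (KO) and stressed KO. All mice were adult females aged 8 to 12 weeks. Cav3.1 is the T-type calcium channel encoded by Cacna1g, and the KO line was on a C57BL/6J background. Chronic stress was a forced swim or a tail suspension test, given once a day for 5 days; the unstressed groups had no treatment. WT C57BL/6J animals were bought from a commercial breeder, whereas the KO animals were supplied by a resource centre, so genotype and source colony cannot be told apart. Whether each library represents its own animal is not stated in the labels, so each p-value reflects only how far these libraries varied, which may be technical.

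TGF-beta is secreted in a latent form, held inside its own propeptide and tethered to matrix by LTBP proteins or to the microglial surface by the protein encoded by Nrros. Integrins built on the alpha-v subunit bind an RGD motif in the propeptide and release the active ligand, which signals through the receptors Tgfbr1 and Tgfbr2 to Smad proteins. In the brain, alpha-v beta-8 is found on astrocytes, their progenitors and some neurons, and it is known for its part in the growth of brain vessels and in the maturation of microglia.

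The coding sequences show which ligands carry the motif that alpha-v integrins bind, and how the beta-8 tail differs from its relatives. In-frame codons for RGD occurred 1 time in the 390 codons of Tgfb1, 1 time in the 412 codons of Tgfb3 and 0 times in the 414 codons of Tgfb2. The stretches below run 5′ to 3′ in coding orientation, with the RGD codons in capitals, from GENCODE release M21 transcripts on GRCm38. They lie at chr7:25696989-25697177 on the plus strand for Tgfb1, where an intron interrupts the stretch, and at chr12:86062138-86062197 on the minus strand for Tgfb3.
Tgfb1: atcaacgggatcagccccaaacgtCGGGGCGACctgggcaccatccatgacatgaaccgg
Tgfb3: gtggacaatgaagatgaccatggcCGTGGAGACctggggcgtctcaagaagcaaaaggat

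Most integrin beta subunits end in a cytoplasmic tail with NPXY motifs, which talin and kindlin bind. Codons for NPXY occurred 2 times in the last 47 codons of Itgb1, 1 time in those of Itgb5 and 0 times in those of Itgb8. The final 90 coding bases are shown without the stop codon, with NPXY codons in capitals. They lie at chr8:128726160-128732085 on the plus strand for Itgb1, with an intron inside, at chr16:33948660-33948749 on the plus strand for Itgb5, and at chr12:119163120-119163209 on the minus strand for Itgb8.
Itgb1: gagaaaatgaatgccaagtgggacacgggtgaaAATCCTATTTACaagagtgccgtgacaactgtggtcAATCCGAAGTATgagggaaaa
Itgb5: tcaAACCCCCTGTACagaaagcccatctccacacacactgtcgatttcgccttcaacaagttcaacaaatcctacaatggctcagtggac
Itgb8: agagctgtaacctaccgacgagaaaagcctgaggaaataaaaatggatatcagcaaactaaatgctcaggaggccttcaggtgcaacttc

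Library totals ran from 15469590 to 31082240 estimated counts, and counts per gene ran from 84 (the lowest, Tgfb1) to 4677 (the highest, Itgav) over the 10 genes. The targeted gene, Cacna1g, stood between 54.6 and 66.0 CPM (counts scaled to a common library size) in the 6 KO libraries and between 109.4 and 144.1 CPM in the 6 WT libraries. Unstressed WT libraries 1 and 2 stood apart by markers of neighbouring tissue. Their olfactory bulb marker scores (mean log2 CPM of the list, centred over the 12 libraries) were 3.14 and 3.38, against 0.55 or less elsewhere. Their meningeal fibroblast scores were 1.47 and 1.77, against 0.32 or less elsewhere. Stressed KO library 1 had a striatal marker score of 1.90, against 0.00 or less elsewhere. Neuron marker scores stayed between -0.12 and 0.08.

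Itgb8, the beta-8 subunit, was highest in unstressed WT and lowest in stressed KO. Unstressed WT libraries 1 to 3 had 37.2, 34.7 and 32.0 CPM of Itgb8, and stressed WT libraries had 24.6, 27.7 and 24.0 CPM. Unstressed KO libraries had 25.7, 28.3 and 29.5 CPM, and stressed KO libraries had 17.0, 16.4 and 14.7 CPM. In both genotypes all stressed libraries lay below all unstressed ones, and all 3 stressed KO libraries lay below the other 9. Group means fell in the order unstressed WT (34.6 ± 2.60 CPM, SD, n = 3), unstressed KO (27.9 ± 1.96), stressed WT (25.5 ± 1.99) and stressed KO (16.1 ± 1.19). Unstressed KO and stressed WT overlapped (25.7 to 29.5 against 24.0 to 27.7 CPM). The fitted log2 difference of stressed against unstressed mice was -0.44 ± 0.09 (SE) in WT and -0.79 ± 0.09 in KO, or 0.735-fold and 0.579-fold.

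Itgav, the alpha-v subunit and the only alpha partner known for beta-8, followed the same order of groups. It stood at 149.6, 143.4 and 143.1 CPM in unstressed WT and 121.9, 115.4 and 99.6 CPM in stressed WT. The unstressed KO libraries stood at 123.5, 123.3 and 115.9 CPM, and the stressed KO libraries at 72.3, 91.9 and 91.1 CPM. The stressed libraries again lay below the unstressed ones in each genotype, and stressed KO library 1, which has the high striatal score, was the lowest of all. The log2 difference with stress was -0.37 ± 0.10 (SE) in WT and -0.51 ± 0.10 in KO, and -0.40 in KO without that library. With the olfactory bulb score as a model covariate, the WT difference of Itgav was -0.17. In bulk tissue, fewer cells of a type and less RNA per cell cannot be told apart.

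The other beta partners of alpha-v did not pass the test with stress in either genotype (edgeR quasi-likelihood test, Benjamini-Hochberg adjustment over 15199 genes, threshold 0.05). Itgb1, which pairs with many alpha subunits, ranged from 60.6 to 72.2 CPM in unstressed WT and 55.3 to 66.2 CPM in stressed WT, with a log2 difference of -0.15 ± 0.10 (SE). In KO it ranged from 56.5 to 69.1 CPM without stress and 56.4 to 60.1 CPM with it (log2 -0.14 ± 0.10). Itgb5, which pairs with alpha-v, had log2 differences of -0.02 ± 0.14 in WT and -0.06 ± 0.15 in KO, and its groups overlapped in both. Per kilobase of exon, the level in unstressed WT was 16.7 for Itgb1, 13.5 for Itgav, 12.0 for Itgb5 and 3.13 CPM per kb for Itgb8, so beta-8 was the least abundant of these subunits. In stressed KO the same levels were 14.3, 7.92, 11.5 and 1.45 CPM per kb, with Itgav now below Itgb5. The lengths merge all annotated exons, 10744 bases for Itgav against 7054 in its longest transcript. The order of subunits with close levels may therefore change with the length used.

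**Figure D1:**
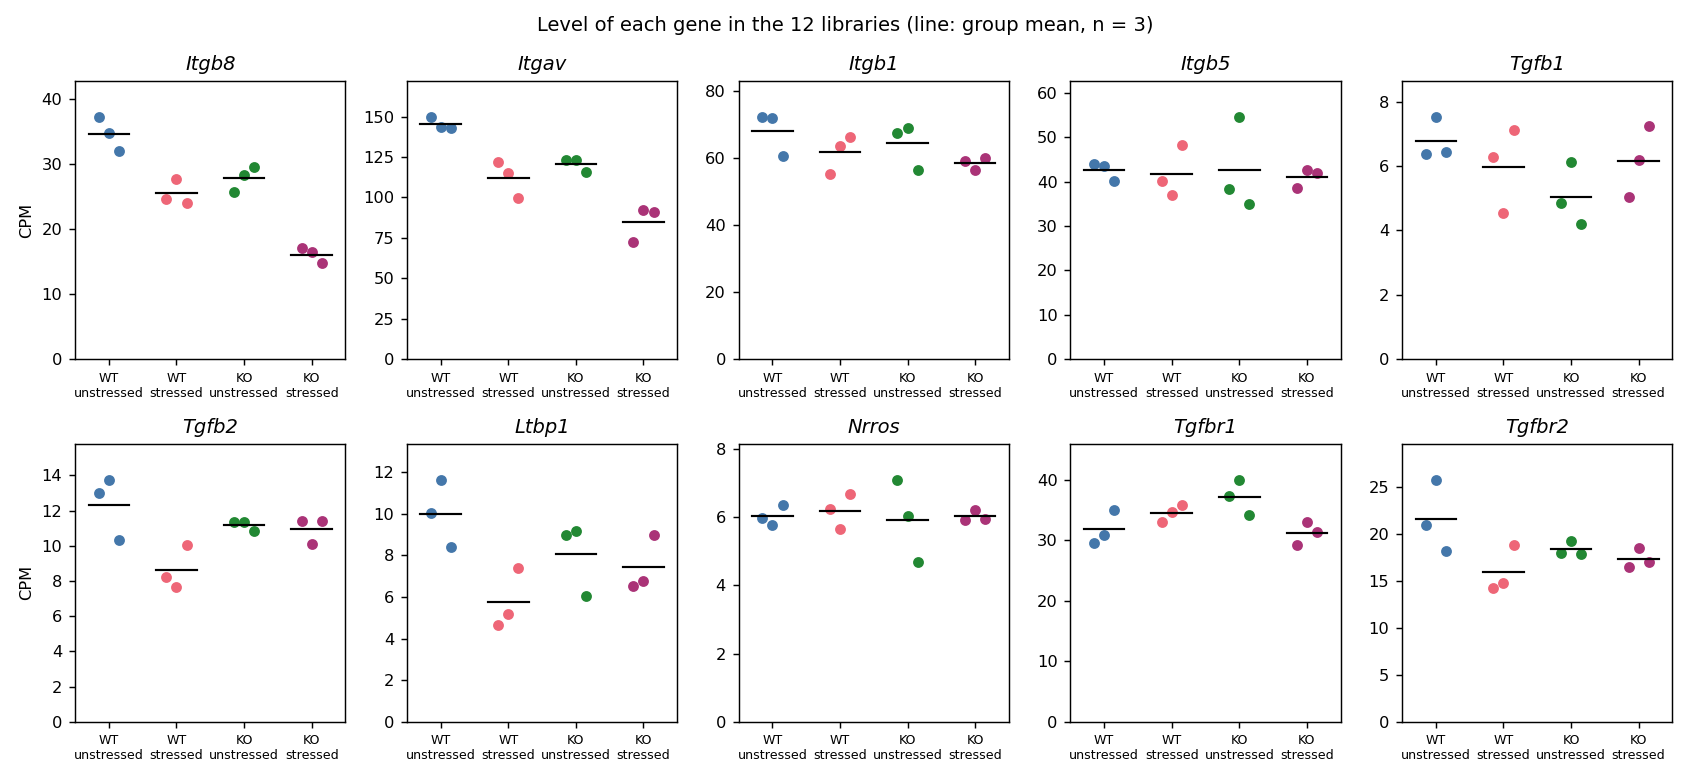
CPM of the 10 genes (vertical axes, from 0) in each library, by group, with the group mean as a line (n = 3 per group). The 3 stressed KO libraries are the lowest of the 12 for Itgb8, at 14.7 to 17.0 CPM, and for Itgav, at 72.3 to 91.9 CPM, while the groups of Itgb5 and Nrros overlap.

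Of the 2 ligands, Tgfb2 fell with stress in WT and Tgfb1 did not pass the test in either genotype. Tgfb2, the ligand whose coding sequence held no RGD codons, stood at 12.97, 13.7 and 10.3 CPM in unstressed WT and 8.20, 7.66 and 10.03 CPM in stressed WT. The groups did not overlap, and the log2 difference was -0.51 ± 0.13 (SE; edgeR adjusted p = 0.0223). In KO, Tgfb2 stood between 10.8 and 11.4 CPM without stress and between 10.1 and 11.4 CPM with it (log2 -0.03 ± 0.13, edgeR adjusted p = 0.974). Tgfb1, in the brain mainly a product of microglia and vessels, ranged from 4.18 to 7.51 CPM over all 12 libraries. Its log2 difference with stress was -0.18 ± 0.19 in WT (edgeR adjusted p = 0.53) and 0.27 ± 0.20 in KO (edgeR adjusted p = 0.697), with overlapping groups.

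The 2 genes that hold latent TGF-beta differed. Ltbp1, which links the latent complex to extracellular matrix, stood at 10.01, 11.6 and 8.38 CPM in unstressed WT and at 4.66, 5.18 and 7.40 CPM in stressed WT. The groups did not overlap, and it fell by 0.79 ± 0.22 on the log2 scale (SE; edgeR adjusted p = 0.0266). In KO its groups overlapped, at 6.03 to 9.17 CPM without stress and 6.55 to 8.97 CPM with it (log2 -0.13 ± 0.22, edgeR adjusted p = 0.887). Nrros, which presents latent TGF-beta on microglia, ranged from 4.68 to 7.09 CPM over all libraries, with log2 differences of 0.04 ± 0.14 in WT and 0.02 ± 0.15 in KO.

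Between the receptors, Tgfbr2, which binds the ligand, fell with stress in WT. It stood at 20.9, 25.8 and 18.1 CPM in unstressed WT and 14.2, 14.8 and 18.8 CPM in stressed WT, so that stressed library 3 lay above unstressed library 3. The log2 difference was -0.44 ± 0.13 (SE; edgeR adjusted p = 0.0396), against -0.09 ± 0.14 in KO (edgeR adjusted p = 0.877). Tgfbr1, the kinase that Tgfbr2 recruits, was not called in either genotype (log2 0.12 ± 0.09 in WT, edgeR adjusted p = 0.335). In KO its stressed libraries (29.1, 33.0 and 31.4 CPM) all lay below the unstressed ones (37.3, 39.9 and 34.2 CPM), with a log2 difference of -0.25 ± 0.09 and an edgeR adjusted p of 0.47.

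Of the 8 partners, 3 were called lower and 0 higher with stress in WT (Tgfb2, Ltbp1 and Tgfbr2), where the edgeR test called 12.1% of all tested genes lower and 9.71% higher. Of the 8 partners, 2 had stressed libraries wholly below the unstressed ones (Tgfb2 and Ltbp1), against 17.2% of all genes, and 0 wholly above, against 19.4%. Without unstressed WT libraries 1 and 2, which leaves 1 library in that group and takes the spread from the others, edgeR called 0 of the 8 partners and 0 genes in all. The log2 differences were then -0.25 for Tgfb2, -0.54 for Ltbp1 and -0.18 for Tgfbr2 (edgeR adjusted p = 0.526, 0.46 and 0.635), while Itgb8 stood at -0.33 and Itgav at -0.35. The 3 calls were also lost without any 1 of unstressed WT libraries 1 and 2 and stressed WT libraries 1 and 2. The log2 differences then stayed between -0.43 and -0.47 for Tgfb2, -0.66 and -0.79 for Ltbp1 and -0.30 and -0.46 for Tgfbr2.

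In KO, 0 of the 8 partners were called with stress, by edgeR or by DESeq2, and 1 of them had an unadjusted edgeR p under 0.05. The edgeR test called 0.0132% of all genes lower and 0.00658% higher in KO. Tgfbr1 was the only partner whose stressed KO libraries all lay below the unstressed ones, which held for 8.45% of all genes. Astrocyte markers in KO summed to 4276 to 6865 CPM without stress and 3932 to 4401 CPM with it, with overlapping ranges, 0 of 14 called and a median log2 difference of -0.29. The 12 oligodendrocyte precursor markers summed to 800 to 990 CPM and 768 to 783 CPM, which did not overlap, with a median of -0.07 and 0 called. In WT the astrocyte sums overlapped (4525 to 4984 against 4345 to 5087 CPM) and the precursor sums did not (886 to 901 against 793 to 878 CPM). By gene, 4 of 14 astrocyte and 2 of 12 precursor markers were called lower in WT and 0 higher, where 12.1% of all genes were called lower. Their medians were -0.241 and -0.215, and 0.012 and -0.27 without unstressed WT libraries 1 and 2. Of 12 myelin markers, 9 rose with stress in WT, against 9.71% of all genes. Without unstressed WT libraries 1 and 2, edgeR called 0 of these 12, with a median log2 difference of 0.89 against 0.91 with them. No marker of either list was at 0 in a group. The part of these cell types in the lower Itgb8 and Itgav was not tested.

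**Figure D2:**
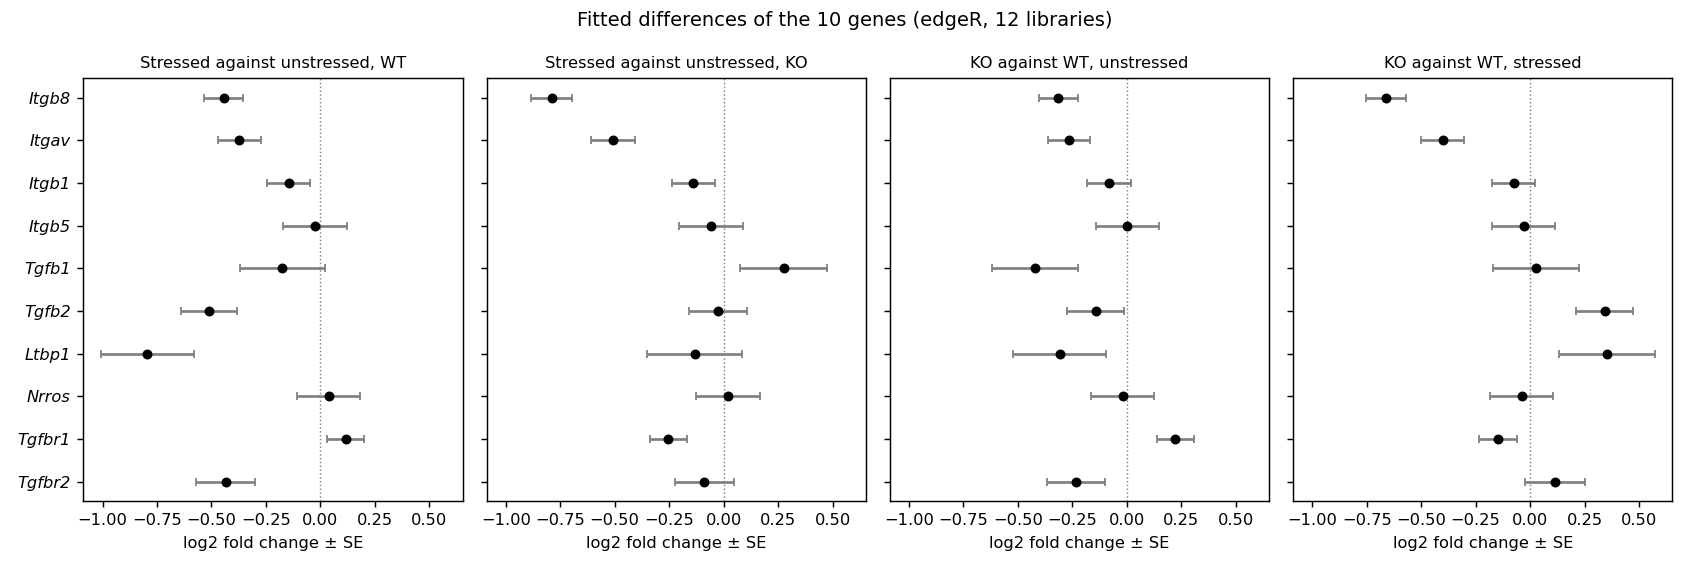
Fitted log2 fold changes (horizontal axes, points with bars of 1 SE) of the 10 genes for stress within each genotype and for KO against WT within each stress level, each from 3 libraries per group. Itgb8 lies farthest below 0 in stressed against unstressed KO (-0.79) and in KO against WT after stress (-0.66), and the panels share groups.

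The genotypes were also compared, in the same libraries by which Itgb8 and Itgav were chosen. Low stressed KO values and high unstressed WT values favour both that choice and a lower level in KO. The p-values and calls of Itgb8 and Itgav do not allow for this. They are given as descriptions and not as tests of genotype. The 8 partners were not chosen by their values. After stress, Itgb8 was lower in KO than in WT, at 14.7 to 17.0 against 24.0 to 27.7 CPM. The log2 difference was -0.66 ± 0.09 (SE; edgeR adjusted p = 0.0099), and it was the only gene of the 10 to be called, beside 0.164% of all genes called lower and 0.0855% higher. Without stress it was also lower, at 25.7 to 29.5 against 32.0 to 37.2 CPM, with a log2 difference of -0.32 ± 0.09 (edgeR adjusted p = 0.0293). It was again the only call among the 10, but 12.1% of all genes were called lower and 11.2% higher there. Itgb8, Itgav and Tgfb1 were the 3 of the 10 whose unstressed KO libraries all lay below the unstressed WT ones, against 18% of all genes, and 0 lay wholly above, against 18.5%. Itgb8 and Itgav were chosen by stress differences that use these libraries, and among the 8 partners only Tgfb1 lay wholly below.

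Unstressed WT libraries 1 and 2 are not part of the comparison after stress, so its log2 difference without them, also -0.66, could hardly change. The call after stress was lost without stressed WT library 2, stressed KO library 2 or stressed KO library 3 (edgeR adjusted p = 0.0607, 0.0509 and 0.0576). The log2 differences lay between -0.60 and -0.71 over all 6 libraries left out in turn. Leaving libraries out does not undo the choice of Itgb8 by its stress difference, so these calls remain descriptions. The call without stress was lost without unstressed WT libraries 1 and 2 (log2 -0.20, edgeR adjusted p = 0.483). It was also lost without WT library 1 or 2, or KO library 1 or 2, of the unstressed groups (edgeR adjusted p = 0.098, 0.0975, 0.0949 and 0.0713), with log2 differences of -0.27, -0.33, -0.26 and -0.33.

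Itgav showed the same direction without passing the test, at log2 -0.27 ± 0.10 (SE) without stress and -0.40 ± 0.10 with stress (edgeR adjusted p = 0.0682 and 0.118), although its KO libraries lay wholly below the WT ones at both stress levels. DESeq2 called it at both (adjusted p = 0.0407 and 0.0138), where DESeq2 called 4187 and 299 of 15199 genes. The edgeR counts over all genes were 3529 and 38. As for Itgb8, the p-values of Itgav do not allow for how it was chosen and are descriptions. Tgfb2 went the other way after stress, at 10.1 to 11.4 CPM in KO against 7.66 to 10.03 CPM in WT (log2 0.34 ± 0.13, edgeR adjusted p = 0.299). After stress 3 of the 10 genes had KO libraries wholly below the WT ones (Itgb8, Itgav and Tgfbr1) and 1 wholly above (Tgfb2), against 11.3% and 10.8% of all genes. Itgb8 and Itgav were chosen for low values in these same stressed libraries, and among the 8 partners only Tgfbr1 lay wholly below.

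The stress effect was not shown to differ between genotypes for any of the 8 partners. The difference of the stress effects (KO minus WT) was -0.35 ± 0.13 (SE) on the log2 scale for Itgb8 and -0.14 ± 0.14 for Itgav. Both genes were chosen by the stress differences that make up this comparison, so these values are descriptions without a test. Tgfbr1 had the smallest p of the 8 partners, at -0.37 ± 0.12 (edgeR adjusted p = 0.0871, DESeq2 adjusted p = 0.049). Tgfb2 and Ltbp1 differed in the opposite direction, by 0.49 ± 0.18 and 0.66 ± 0.31 (edgeR adjusted p = 0.117 and 0.178). The edgeR interaction test called 0% of all genes. An unadjusted edgeR p under 0.05 was found for 2 of the 8 partners and 4330 genes in all, and DESeq2 called 1885 genes. The edgeR count was 198 with DESeq2's size factors, 143 with no filter on low counts, 46 without unstressed KO library 1 and 3851 without unstressed WT library 3. Without the latter Tgfbr1 and Tgfb2 were called (edgeR adjusted p = 0.0181 and 0.0197).

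Other genes of the pathway were read from lists of known members. Of 15 tested genes that store or release latent TGF-beta, 10 fell and 0 rose with stress in WT, where 12.1% of all tested genes were called lower and 9.71% higher. The list had a median log2 difference of -0.88, against 0.002 over all genes. Thbs1, a secreted activator of latent TGF-beta, fell by 2.09 ± 0.36 (SE), Adamts1, a matrix protease, by 0.88 ± 0.14, and Mmp14, a membrane protease, by 1.11 ± 0.20 (edgeR adjusted p = 0.0122, 0.0117 and 0.0122). Unstressed WT libraries 1 and 2 scored highest on this list, at 0.70 and 0.98, and these are the libraries with meningeal scores of 1.47 and 1.77. Without them 0 genes of the list were called, with a median of -0.44. In KO 0 of the 15 were called, with a median of -0.02. Itgb3, an integrin beta subunit on this list, stood at 0.37 ± 0.17 with stress in WT and -0.255 ± 0.17 in KO (edgeR adjusted p = 0.128 and 0.67). Without stress it was higher in KO than in WT, by 0.62 ± 0.17 (edgeR adjusted p = 0.025), where 11.2% of all genes were called higher. That difference was 0.285 without unstressed WT libraries 1 and 2.

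Downstream, 4 of 17 Smad and inhibitor genes fell and 0 rose in stressed WT (12.1% and 9.71% of all genes), among them Smad5 (log2 -0.57 ± 0.13, SE) and Smad9 (-0.31 ± 0.09), both transducers of bone morphogenetic protein signals. Dcn, which is also on the meningeal fibroblast list, was another of the 4 (-1.63 ± 0.43). Its difference was -0.40 without unstressed WT libraries 1 and 2. Of 18 known TGF-beta target genes in the table, 2 rose, a share near that of all genes, and 5 fell. Klf10, an early TGF-beta response gene, rose by 0.81 ± 0.11, and Fn1 (fibronectin) and Col4a1 (a basement membrane collagen) fell by 1.39 ± 0.22 and 0.62 ± 0.13. In KO 0 of 17 and 0 of 18 were called, with medians of -0.02 and 0.07, and Klf10 stood at 0.34 ± 0.11 (edgeR adjusted p = 0.47). Without unstressed WT libraries 1 and 2, edgeR called 0 genes of either list in WT.

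Microglial genes known to depend on TGF-beta had median log2 differences with stress of 0.11 in WT and -0.07 in KO. Of 16 such genes, 0 rose and 2 fell with stress in WT, Sall1 by 1.78 ± 0.40 (SE) and Pros1 by 0.44 ± 0.14 on the log2 scale, and 0 were called in KO. The share called lower in WT is near the 12.1% of all genes. Sall1, a transcription factor, is also made by other cells of the nervous system, and without unstressed WT libraries 1 and 2 its difference was -0.51. P2ry12, the purinergic receptor of resting microglia, stood at 0.20 ± 0.11 in WT and -0.20 ± 0.11 in KO (edgeR adjusted p = 0.214 and 0.611). The summed level of the 16 genes was 564 to 628 CPM in unstressed WT, 532 to 616 in stressed WT, 540 to 660 in unstressed KO and 521 to 586 CPM in stressed KO, with overlapping ranges. Of 10 tested genes of activated microglia, 1 rose and 1 fell in WT (Ctsb by 0.29, Spp1 by -2.57) and 0 were called in KO. Without unstressed WT libraries 1 and 2 neither was called, and the log2 difference was 0.29 for Ctsb and -0.30 for Spp1.

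**Figure D3:**
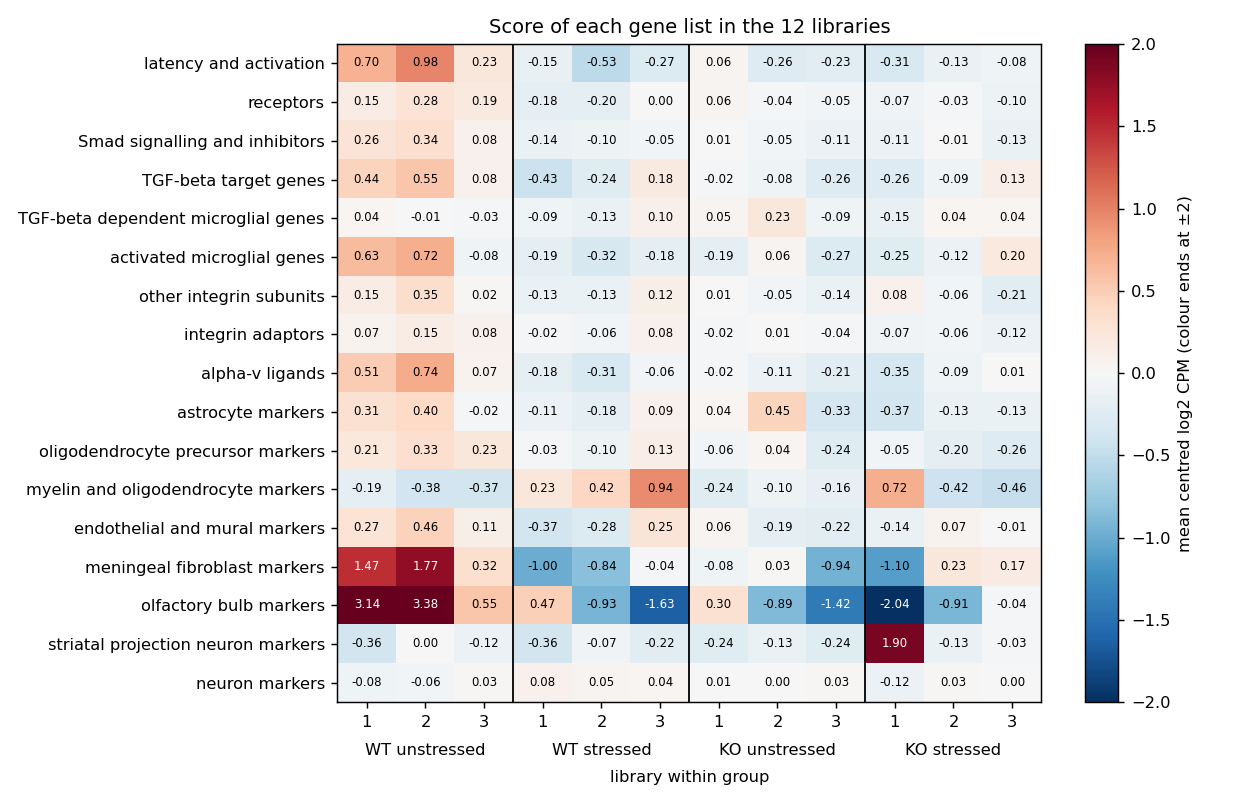
Score of each gene list (rows; mean log2 CPM of the tested members, centred over the 12 libraries) in each library (columns, by group). Unstressed WT libraries 1 and 2 are highest for olfactory bulb (3.14 and 3.38), meningeal (1.47 and 1.77) and latency and activation genes (0.70 and 0.98), while TGF-beta dependent microglial genes stay between -0.15 and 0.23.

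Across the 12 libraries, Itgav tracked Itgb8 with a Pearson r of 0.90 in log2 CPM, and the other 8 genes had r between -0.16 and 0.57. Within groups, taken as deviations from the group means, the r of Itgav with Itgb8 was -0.14, so the likeness lay between the groups. Both genes were chosen for falling with stress, and these values are a description. Among the 11894 genes whose average log2 CPM reached 2, the 6 most like Itgb8 over the 12 libraries were Nup153 (r = 0.95), Tnpo1 (0.95), Snx29 (0.94), Hdac4 (0.93), Fgd4 (0.92) and Ppp1r12b (0.91). Tnpo1, a nuclear import receptor, averaged 60.7 CPM in unstressed and 45.3 in stressed WT, and 52.0 and 35.4 CPM in the same KO groups. Hdac4, a histone deacetylase, averaged 29.0, 21.4, 21.2 and 14.9 CPM in the same order of groups. By deviations from the group means the genes most like it were others, among them Ppp2r3a, Kdm6a, Fuca2, Gtf3c4 and Gfm2 (r between 0.90 and 0.93).

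Itgb8 and Itgav share long transcripts. The longest annotated transcript was 8403 bases for Itgb8 and 7054 bases for Itgav, which puts both, with Tgfbr2 (8092 bases), in the decile of tested genes with the longest transcripts. Tnpo1, Hdac4, Fgd4 and Ppp1r12b, 4 of the 6 genes most like Itgb8, were in that decile too. With stress in WT, edgeR called 22.5% of the genes of that decile lower, against 3.69% in the decile with the shortest transcripts. The shares were 16.6% and 18.7% in deciles 8 and 9, which hold Tgfb2 and Ltbp1. The 1463 genes of the longest decile had a median log2 difference with stress of -0.13 in WT and -0.13 in KO, against 0.16 and -0.02 in the decile with the shortest transcripts. Itgb8 and Itgav were chosen for being lower with stress, so their place below these medians is set by that choice. With the mean level of that decile as a covariate, a choice made after seeing the data, the stress difference was -0.37 in WT and -0.74 in KO for Itgb8, and -0.56 and -0.64 for Itgav. The Itgb8 difference between genotypes after stress was then -0.64 (edgeR adjusted p = 0.0287). This p-value, too, does not allow for how Itgb8 was chosen.

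**Figure D4:**
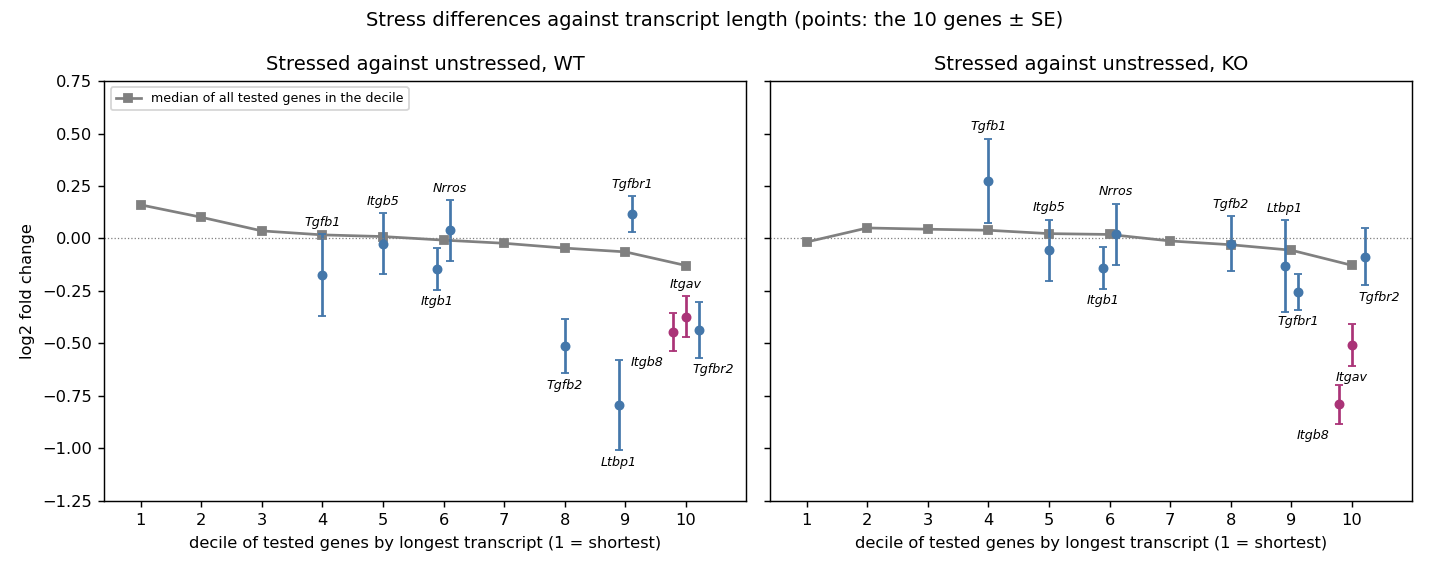
Log2 fold change with stress (vertical axis) in WT and KO by deciles of tested genes ordered by longest transcript (horizontal axis, 1 = shortest). Grey squares are the median of all genes in a decile, and points are the 10 genes with bars of 1 SE. The median of the longest decile is at -0.13 in both genotypes; Itgb8 and Itgav (purple) were chosen for being low on this axis.

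The genes lie on different chromosomes or far apart (GRCm38, GENCODE release M21). Itgb8 spans 119158022 to 119238802 on chromosome 12 (minus strand) and Itgav spans 83724397 to 83806916 on chromosome 2 (plus strand). Exons of Itgav overlap Gm13684, and exons of Tgfb2 overlap Gm29491, both on the opposite strand, and whether the counting used strand is not given in the sources used here. No estimated count of the 10 genes carried a decimal, so their reads were not shared out with similar sequences.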

How the data were processed

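Total RNA of the medial prefrontal cortex was sequenced with a strand-keeping library kit, per the labels' protocols. The table deposited by the authors holds an unscaled estimated count for every gene symbol in each library. Trim Galore 0.6.6, STAR 2.7.9a, RSEM 1.3.1, DESeq2 1.36.0 and build mm10 are named in the submitters' processing notes; the annotation and whether counting used strand are not given. Groups were taken from the sample titles. Counts were rounded, filtered with filterByExpr (minimum count 10, minimum total 15), scaled by TMM and fitted in R 4.3.3 with edgeR 4.0.16 as 4 group means over 12 libraries (8 residual degrees of freedom), with 5 two-sided comparisons and Benjamini-Hochberg adjustment. Log2 CPM used a prior count of 2. A count of 3, the limit that a count of 0 allows, was 0.0920 to 0.192 CPM (counting error only). With 3 libraries a side the smallest exact permutation p is 0.1, and no such test was run. The members and gene lists were chosen with earlier results of these data known. From each list, only the 3 genes with the smallest p in each stress comparison could be named, and the 6 genes most like Itgb8 were taken by Pearson r, not all of which are reported here. Positions, exon lengths and transcripts are from GENCODE M21, with a length for 96.2% of tested genes. The test was checked on simulated counts, which held no tissue differences between libraries such as those seen here. Replicates differed beyond sampling noise (chi-square divided by its degrees of freedom was 4.93 to 71.2), and none was treated as a duplicate. Alternatives included DESeq2 1.42.0, other filters and scaling, a replicate block, covariates and libraries left out.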

Additional observations from a re-analysis of the deposited data

How the results depend on the processing

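The stress differences of Itgb8 and Itgav kept their sign under every alternative run, at -0.33 to -0.51 (WT) and -0.73 to -0.85 (KO) for Itgb8, and at -0.17 to -0.56 and -0.40 to -0.64 for Itgav. Both genes were chosen for falling with stress in these same libraries, so the kept sign was largely set by that choice. Of the 8 partners, 3 were called with stress in WT; 0 were called with only the compared groups in the fit, without unstressed WT libraries 1 and 2, without these and stressed KO library 1, or with the olfactory bulb or the long-transcript score added as a covariate, and 0 to 3 with 1 library left out. The last library set and the length score were chosen after seeing the data. With only the compared groups fewer samples give the spread; for the other losses the cause was not tested. In KO 0 were called in every alternative. The log2 differences of Tgfb2, Ltbp1 and Tgfbr2 were -0.51, -0.80 and -0.44 with only the compared groups and -0.52, -1.06 and -0.34 with the long-transcript covariate. For KO against WT without stress, 1 of 10 was called, 2 by DESeq2, 0 under the same 5 alternatives, and 0 to 3 with 1 library left out. There the 3 came without unstressed WT library 3, where 5729 of 15379 genes were called in all. DESeq2 called 4187 of 15199 genes there, and the main fit 3529. With stress 1 was called, 2 by DESeq2, and 0 to 1 with 1 library left out. The main call in both genotype comparisons was Itgb8, and it does not allow for how that gene was chosen. Over all genes the calls with stress were 38 by edgeR and 299 by DESeq2. For the interaction 0 of the 8 partners were called, 1 by DESeq2, and 0 to 2 with 1 library left out.

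Small differences changed sign. Without unstressed WT libraries 1 and 2 stress in WT gave 0.026 for Itgb1, 0.055 for Itgb5, -0.038 for Nrros and -0.022 for Tgfbr1, and KO against WT without stress gave 0.116 for Tgfb2; with stressed KO library 1 left out as well these were 0.025, 0.055, -0.038, -0.022 and 0.116. With 1 library left out the range in WT was -0.137 to 0.058 for Itgb5 and -0.020 to 0.102 for Nrros, and in KO -0.181 to 0.158 for Itgb5, -0.060 to 0.030 for Tgfb2 and -0.123 to 0.170 for Nrros. The length covariate gave -0.047 (WT) and -0.036 (KO) for Nrros, and the olfactory bulb covariate 0.021 for Tgfb1 in WT.

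Replicate numbers are shared by the groups but do not pair the libraries: same-numbered libraries had correlations of their deviations from -0.25 to 0.36, above 0.1 in 4 of 18 pairs, and 5 of 12 libraries were most like one of their own number. With the replicate block the counts of called genes among the members were 3, 0, 1, 1 and 0, as without it. The interaction could not be run with only the compared groups. Over all genes, the calls with stress in WT went from 3322 to 1 with only the WT groups in the fit and to 0 with either covariate, without unstressed WT library 2 or without stressed WT library 2, and those in KO from 3 to 46 by DESeq2. Depth limits Tgfb1 and Nrros most, at 84 to 245 and 93 to 196 counts.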

Other observations

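Integrin adaptors and the other integrin subunits were called lower with stress in WT about as often as all genes were. Of 19 tested integrin adaptors, which link the beta tails to the cytoskeleton, 3 fell and 0 rose with stress in WT, where 12.1% of all tested genes were called lower, and the median log2 difference was -0.03. Tln1 (talin) fell by 0.56 ± 0.14 (SE), Pxn (paxillin) by 0.44 ± 0.14 and Vcl (vinculin) by 0.39 ± 0.12 on the log2 scale, with edgeR adjusted p of 0.0213, 0.041 and 0.0421. In KO 0 of the 19 were called. Fermt2 (kindlin-2) stood at -0.31 ± 0.10 in KO and did not pass the test (edgeR adjusted p = 0.47). Of 17 tested other integrin subunits, 2 fell in WT, Itga6 by 0.46 ± 0.12 and Itga10 by 0.68 ± 0.22, and 0 were called in KO. The median of these subunits in WT was -0.34, and -0.04 without unstressed WT libraries 1 and 2.

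Of 12 tested proteins that alpha-v integrins bind, 6 fell and 1 rose with stress in WT, against 12.1% and 9.71% of all genes, with a median log2 difference of -0.39, and 0 of 12 were called in KO, with a median of -0.08. Fn1, Thbs1 and Spp1 are among the 6 and were also counted in lists above. Over all genes edgeR called 3322 in WT and 3 in KO. Among other receptors of the superfamily, 5 of 10 fell in WT, including Tgfbr3 (betaglycan, a co-receptor for Tgfb2) by 0.96 ± 0.22 and Bmpr1a by 0.38 ± 0.08, and 0 of 10 were called in KO. Without unstressed WT libraries 1 and 2, edgeR called 0 genes of each of these 4 lists in WT.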
